A study of Homo sapiens with 36 samples.

Results

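The genes described here are 9 noncoding host genes of small nucleolar RNAs (snoRNAs), GAS5, SNHG1, SNHG5, SNHG6, SNHG7, SNHG8, SNHG12, SNHG15 and ZFAS1, which were listed by name and found by their gene identifiers among the 57820 genes of the count table. All 9 passed the filter on low counts in each of the comparisons below. The RNA had been sequenced from A2780 cells, an established line from a human ovarian cancer, and the 36 libraries form 12 conditions, each with 3 libraries. Used were the platinum-sensitive parental line (wt), an isogenic platinum-resistant line derived from it by long exposure to cisplatin (cis), and a population that grew out of cis cells kept without serine and glycine (cis SSP). Each of these was cultured in complete medium or in medium lacking both amino acids (-SG), without drug or with carboplatin (carbo), a DNA-crosslinking platinum drug whose concentration the labels print as 6 M, where a prefix of the unit appears to be missing, and cis SSP cells carry both earlier selections in all of their 4 conditions. The study followed serine metabolism in platinum resistance. The legends of the study name the triplicates technical replicates, so p-values measure only the spread between these libraries, and each line is 1 cell population.

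snoRNAs guide chemical modification of ribosomal RNA, box C/D snoRNAs ribose methylation and box H/ACA snoRNAs pseudouridylation, and most human snoRNAs are cut out of the introns of host genes. In a noncoding host the spliced exons code for no known protein. Many such host RNAs begin with a terminal oligopyrimidine (TOP) tract like the mRNAs of ribosomal proteins, are engaged by ribosomes, and are then degraded by nonsense-mediated decay, so their spliced RNA is known to accumulate when translation or this decay is inhibited. GAS5 was named for its accumulation in growth-arrested cells. The counts describe host RNA on annotated exons. The snoRNAs themselves are short and carry no poly(A) tail, while the libraries were made from purified mRNA. By the annotation used below for positions, SNHG1, SNHG8 and SNHG15 have 1 merged exon over the whole gene. The counting used the exons of GENCODE v19, which were not examined here, so whether the counts are spliced RNA alone is not known. In the annotation used for positions, SNORD78 overlaps exons of GAS5 by 65 bases, and SNORD12 and SNORD12B overlap exons of ZFAS1 by 90 and 88 bases. In GRCh37, by the GENCODE v44 annotation mapped to that build, the genes lie on chromosome 1 from 173827697 to 173838020 (GAS5), chromosome 11 from 62619450 to 62623425 (SNHG1), chromosome 6 from 86360209 to 86388650 (SNHG5), chromosome 8 from 67832796 to 67838633 (SNHG6), chromosome 9 from 139615818 to 139622636 (SNHG7), chromosome 4 from 119199858 to 119206471 (SNHG8), chromosome 1 from 28905050 to 28909644 (SNHG12), chromosome 7 from 45022618 to 45026560 (SNHG15) and chromosome 20 from 47894715 to 47916137 (ZFAS1), each annotated as a long noncoding RNA.

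The hosts differ in what their introns hold. By RefSeq gene positions, GAS5 contains 11 snoRNA genes, of which 10 are box C/D snoRNAs by name (SNORD44, SNORD47 and SNORD74 to SNORD81) and 1 is a box H/ACA snoRNA. SNHG1 contains 9 entries, 8 of them named box C/D snoRNAs (SNORD22 and SNORD25 to SNORD31). ZFAS1 hosts SNORD12, SNORD12B and SNORD12C, SNHG5 hosts SNORD50A and SNORD50B, and SNHG6 hosts SNORD87. SNHG7 (SNORA17A and SNORA17B), SNHG8 (SNORA24) and SNHG15 (SNORA9) host box H/ACA snoRNAs alone, and SNHG12 holds 3 box H/ACA snoRNAs together with SNORD99.

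The letters around the annotated start bear on what the hosts share with mRNAs of the TOP class, so they are shown for the 7 hosts with an entry in the RefSeq promoter table (build GRCh38.p14). Each run covers the 40 bases before the start and the first 20 bases of the RNA, read 5′ to 3′ on the gene's strand. Capitals mark TATAA within the 20 bases that lie 40 to 20 bases before the start and, at the start itself, a C with the pyrimidines that follow it without a break.
GAS5, chr1:173869026-173869085, minus strand: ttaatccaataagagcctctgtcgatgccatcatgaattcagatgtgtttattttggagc
SNHG1, chr11:62855866-62855925, minus strand: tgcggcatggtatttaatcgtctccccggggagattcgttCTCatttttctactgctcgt
SNHG5, chr6:85678714-85678773, minus strand: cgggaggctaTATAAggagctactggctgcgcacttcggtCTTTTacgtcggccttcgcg
SNHG7, chr9:136728165-136728224, minus strand: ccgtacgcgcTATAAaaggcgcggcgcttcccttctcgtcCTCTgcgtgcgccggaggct
SNHG8, chr4:118278722-118278781, plus strand: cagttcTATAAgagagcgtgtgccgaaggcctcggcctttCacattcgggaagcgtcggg
SNHG12, chr1:28581854-28581913, minus strand: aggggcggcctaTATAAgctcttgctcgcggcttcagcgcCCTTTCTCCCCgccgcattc
ZFAS1, chr20:49278602-49278661, plus strand: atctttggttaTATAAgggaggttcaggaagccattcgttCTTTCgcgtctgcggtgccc
A start of C followed by at least 3 further pyrimidines was present in 4 of the 7 (SNHG5, SNHG7, SNHG12 and ZFAS1), against 5.5% of the 35116 promoters listed, 61.5% of the 78 entries for ribosomal protein genes, 80% of the 10 entries for translation factors of the TOP class, 43.8% of the 32 entries for protein-coding snoRNA hosts and 25% of the 16 entries for other noncoding snoRNA hosts. SNHG1 starts with a run of 3 pyrimidines, SNHG8 with a single C and GAS5 with A. TATAA in the window was present in 5 of the 7, against 3.8% of all promoters, 40% of the entries for TOP translation factors, 30% of the 10 entries for mRNAs sensitive to nonsense-mediated decay, 18.8% of those for protein-coding snoRNA hosts, 9.0% of those for ribosomal protein genes and 6.2% of those for other noncoding snoRNA hosts. On the opposite strand, searched as TTATA, it was present in 1 of the 7 (ZFAS1, where both motifs overlap) and in 1.6% of all promoters. These are letters at an annotated start, which can differ from the start used in A2780 cells.

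Each library held between 13074937 and 20441582 counts on genes, and the 9 hosts together received 7240 to 37324 of them, between 0.0452% and 0.200%. Expression is given as CPM (library-size-scaled counts), scaled by TMM over the 36 libraries, always in the order of the library numbers, levels of different genes are not compared, and each test scales its own libraries anew. Library 25 of the condition cis SSP and library 32 of cis SSP -SG stood apart from the other libraries of their conditions, with higher values for short transcripts and lower values for long ones. Transcript length, here and below, is the merged exon length in GENCODE v44, which need not be the length of the RNA counted. Over 10753 genes, the log2 level fell by 0.341 and 0.351 for each doubling of this length in libraries 25 and 32, relative to the mean of the other libraries of their condition. All 9 hosts were high there, at 1.49 to 2.43 times the mean of the other libraries of the condition. Library 11 of wt -SG carbo went the same way with a smaller slope of -0.13. Results that rest on cis SSP cells are therefore given with and without libraries 25 and 32. Removal of the trend over transcript length, an alternative below, cannot decide the part of length in the values of single hosts, since it rests on these merged lengths. The index sequences of the 12 cis SSP libraries are those of the 12 wt libraries, and no index is shared with cis libraries, so wherever cis cells are compared with wt or cis SSP cells the index set and the line cannot be told apart. Of the epithelial and ovarian markers checked against the labelled tissue, EPCAM, KRT7, CDH1, PAX8 and MUC16 stayed at or under 2.26 CPM in every library, while KRT18 reached 44.1 CPM, KRT8 6.45 CPM and PAX2 204 CPM. Of the fibroblast markers, COL1A1 reached 991 CPM and COL1A2 770 CPM. Leukocyte and endothelial markers were at or near 0. PHGDH, the first enzyme of serine synthesis from glucose, was lower in cis than in wt cells (log2 fold change -1.66 by edgeR). CDKN1A, a p53 target, was higher with carboplatin in each line and medium, without overlap between libraries, as a check of the drug labels.

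**Figure D1:**
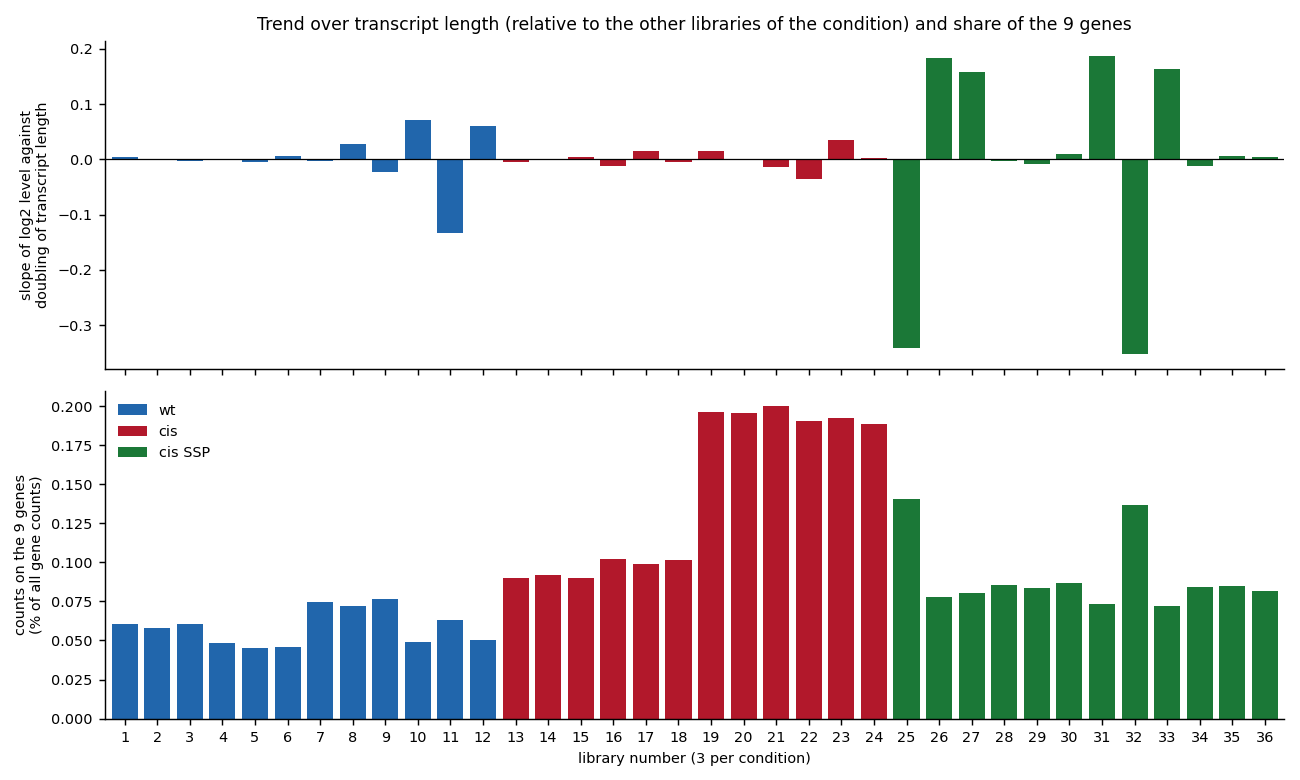
The upper bars give, for each of the 36 libraries, the slope of the log2 level against the doubling of transcript length over 10753 genes, relative to the mean of the other libraries of its condition, and the lower bars give the share of all gene counts that fell on the 9 snoRNA host genes, in percent. Libraries 25 and 32 have the steepest negative slopes and the highest shares among the cis SSP libraries, and libraries 19 to 24, of cis cells without serine and glycine, have the highest shares of all.

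All 9 hosts had their highest mean level in cis cells deprived of serine and glycine, and 7 of them had their lowest in wt cells treated with carboplatin. The highest mean was 5.40 times the lowest for SNHG6, 5.16 times for GAS5 and 4.49 times for SNHG5, and 2.24 times for SNHG8, the host with the narrowest range. The libraries of cis -SG and cis -SG carbo, first and second in the order of every host, overlapped for GAS5, SNHG5 and SNHG8 and not for the other 6. Scaled by total counts, cis -SG carbo came first for SNHG5 and SNHG8, and with DESeq2's size factors for SNHG8. The lowest mean of SNHG15 was in wt -SG and that of SNHG12 in untreated wt cells, where the libraries of SNHG12 overlapped those of wt carbo.

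**Figure D2:**
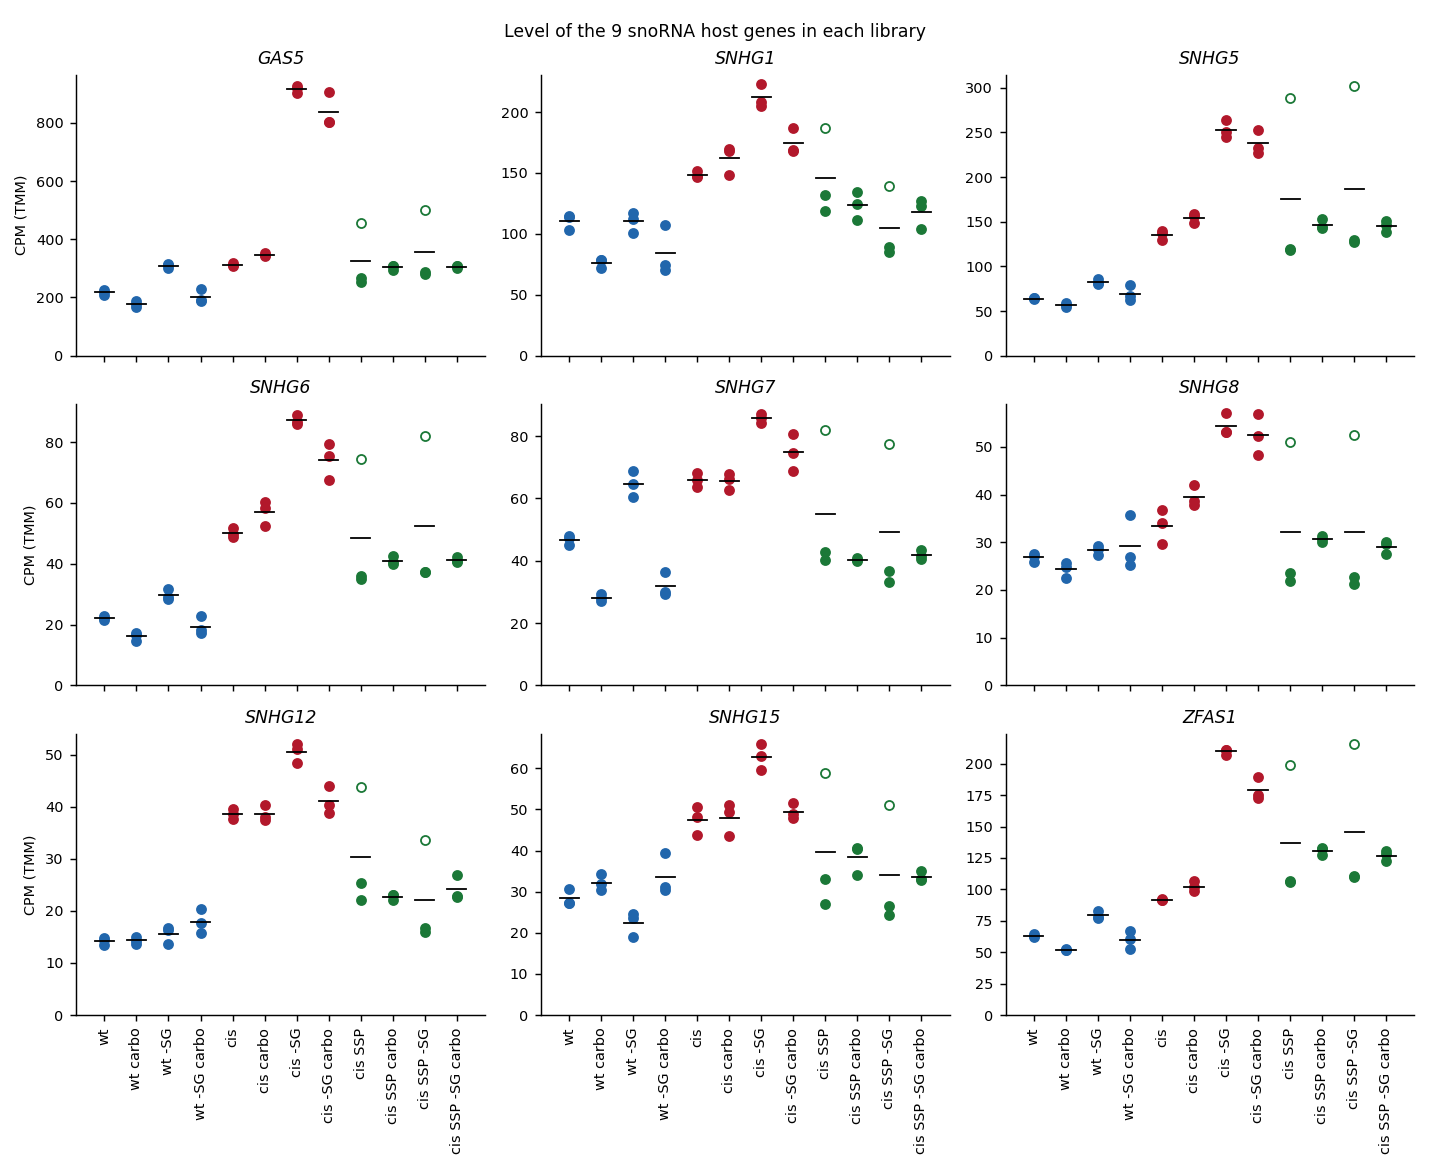
Each panel shows 1 snoRNA host gene, with the level in CPM (scaled by TMM) on an axis that starts at 0 and the 12 conditions along the bottom. Points are libraries, black lines are means of 3 libraries, colours mark wt (blue), cis (red) and cis SSP (green) cells, and open circles are libraries 25 and 32. The libraries of cis -SG have the highest mean in every panel, and the open circles lie above the other libraries of their conditions.

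Across the 12 condition means the hosts resembled one another. Pearson's correlation of log2 CPM between pairs of hosts ran from 0.54 to 0.97 over the 36 pairs, with a median of 0.83. The lowest value was that of SNHG7 and SNHG15. These are descriptions over 12 points that share cell line, depth and the conditions themselves. The genes whose log2 CPM was most like the mean standardised log2 CPM of the 9 hosts, among 9439 genes with a mean of at least 10 CPM, were RPL30 (r = 0.98), PYGB (0.98), PLA2G12A (0.98), SNHG32 (0.98) and KCNG1 (0.97). RPL30 encodes a ribosomal protein and SNHG32 is another noncoding snoRNA host. RPL30 was also first over the 36 single libraries (r = 0.97), whereas Spearman's correlation placed RPS20, PYGB, PRELID3B, CDK5RAP3 and RSAD1 first.

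The first comparison asks how the resistant line differs from its parent. All 9 hosts were higher in cis than in wt cells in complete medium, with log2 fold changes from 0.28 to 1.40, and for none did the libraries of both lines overlap. Here and below, the share of all genes without overlap was not counted, so an absence of overlap describes the hosts only. Among all 14431 genes tested, 39.4% were called higher in cis cells (an adjusted p of less than 0.05 in the quasi-likelihood test of edgeR with Benjamini-Hochberg adjustment, which is the rule for every call below). GAS5 was at 224, 209 and 219.7 CPM in wt and at 308, 311 and 318 CPM in cis cells. All cis libraries lay above the highest wt library, with a log2 fold change ± standard error, as for each ± below, of 0.49 ± 0.0266 (adjusted p = 4.86e-21) in that edgeR test. SNHG12, host of 3 box H/ACA snoRNAs, was at 14.8, 13.5 and 14.4 CPM in wt and 37.7, 39.6 and 38.6 CPM in cis cells. This was the largest difference of the 9, 1.40 ± 0.0624 (adjusted p = 1.91e-24) by edgeR.

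SNHG6 stood at 21.6, 22.9 and 22.2 CPM in wt and 48.6, 49.9 and 51.7 CPM in cis cells, 1.14 ± 0.0527. SNHG5 stood at 64.6, 64.1 and 63.2 CPM and 129.9, 138 and 139 CPM, 1.05 ± 0.0348. These 2 box C/D hosts were thus, like SNHG12, higher in every cis library, with groups far apart. The remaining differences were 0.71 ± 0.0563 for SNHG15, 0.50 ± 0.0372 for ZFAS1, 0.46 ± 0.0436 for SNHG7, 0.40 ± 0.0351 for SNHG1 and 0.28 ± 0.0635 for SNHG8. SNHG8 had the closest groups, at 27.1, 27.5 and 25.9 CPM in wt and 36.7, 34 and 29.7 CPM in cis cells. With a minimum absolute log2 fold change of 0.5 also required, 5 of the 9 were called, against 44.7% of all genes tested. Beside these differences, the summed level of 4 fibroblast markers was 518 to 549.9 CPM in wt and 4.91 to 5.79 CPM in cis libraries, that of 4 ovarian markers, nearly all from PAX2, 164 to 167 CPM and 0 to 0.282 CPM, and that of 5 epithelial markers 1.66 to 2.11 CPM and 16.5 to 19.6 CPM, and their part in the values of the hosts was not tested.

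The same direction held in the other media. Without serine and glycine all 9 hosts were called higher in cis than in wt cells, against 40.8% of genes tested, with log2 fold changes from 0.40 (SNHG7) to 1.69 (SNHG12). With carboplatin in complete medium all 9 were again called higher in cis cells, against 40.3% of genes tested, from 0.56 (SNHG15) to 1.80 (SNHG6). In both cases the libraries of wt and cis cells did not overlap for any of the 9, and how common this was among all genes was not counted. SNHG7 differed between lines by 0.46 ± 0.0436 in untreated cells, by 0.40 ± 0.0435 under deprivation and by 1.20 ± 0.0479 under carboplatin.

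The next comparison asks how the cells respond to the loss of serine and glycine. All 9 hosts rose in cis cells. Among all genes tested 37.6% were called higher. The libraries of both media overlapped for none of the 9 hosts, and how common this was among all genes was not counted. GAS5 went from 308, 311 and 318 CPM in complete medium to 903, 921 and 928 CPM without serine and glycine. Every deprived library was far above the undeprived ones, with a log2 fold change of 1.58 ± 0.0275 (adjusted p = 1.47e-40) by edgeR, a fold of 2.99. ZFAS1, host of the SNORD12 snoRNAs, went from 91.2, 91.5 and 92 CPM to 207, 211 and 211 CPM. Its libraries were tightly grouped in both media, 1.22 ± 0.0324 (adjusted p = 1.86e-33) by edgeR.

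SNHG5 rose from 129.9, 138 and 139 CPM to 245, 264 and 251 CPM, by 0.93 ± 0.0321 on the log2 scale. SNHG6 rose from 48.6, 49.9 and 51.7 CPM to 86.6, 88.7 and 86.1 CPM, by 0.82 ± 0.0416. SNHG8, a box H/ACA host, rose from 36.7, 34 and 29.7 CPM to 53, 53.2 and 57.1 CPM, by 0.73 ± 0.0582. The other 4 rose less, SNHG1 by 0.54 ± 0.0331, SNHG15 by 0.43 ± 0.0501, SNHG12 by 0.42 ± 0.0495 and SNHG7 by 0.41 ± 0.0401. None of these calls was lost when a library was left out, with another normalization, with DESeq2 or with the trend over transcript length removed. SNHG7, SNHG12 and SNHG15 lost theirs in one fit over the 36 libraries and with a minimum absolute log2 fold change of 0.5 required. Those alternatives called 50.3% and 38.6% of all genes tested in either direction, against 75% as given. The summed level of the 5 epithelial markers moved as well, from 16.5 to 19.6 CPM to 43.4 to 47.3 CPM, and its part in these values was not tested. The sum in deprived cis cells is mostly KRT18, since no other epithelial marker exceeded 6.45 CPM in any library.

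In wt cells the same deprivation raised 5 hosts and lowered 1, against 24.1% of genes tested called higher and 25.1% called lower. GAS5 rose from 224, 209 and 219.7 CPM to 316, 301 and 312 CPM, by 0.52 ± 0.0307 (adjusted p = 4.28e-11) in edgeR's test. SNHG7 rose from 48, 47.3 and 45 CPM to 60.3, 64.4 and 68.9 CPM, by 0.47 ± 0.0485 on the log2 scale. The deprived libraries lay above the undeprived ones in both cases. SNHG6 (0.43 ± 0.0591), SNHG5 (0.38 ± 0.0381) and ZFAS1 (0.34 ± 0.0391) rose too. SNHG15 was at 27.3, 27.2 and 30.6 CPM in complete medium and 23.7, 19 and 24.5 CPM without serine and glycine, a log2 fold change of -0.33 ± 0.0869 (adjusted p = 0.00625) by edgeR. It was the only host of the 9 to fall, and its libraries did not overlap. SNHG1 (0.01), SNHG8 (0.09) and SNHG12 (0.13) did not pass the threshold, and their libraries overlapped between media. In one fit over the 36 libraries, where libraries 25 and 32 enter the estimate of the spread, 1 host was called in wt cells. That fit called 16.9% of all genes tested in either direction, against 49.2% in the comparison as given.

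The difference between both responses was tested by an interaction term, in which a positive value means a larger log2 fold change in cis than in wt cells. It was called positive for 8 of the 9 hosts, against 27.1% of the 15418 genes tested. GAS5 differed most, by 1.08 ± 0.0393 (adjusted p = 2.27e-23) in edgeR's test, followed by ZFAS1 (0.90 ± 0.0479), SNHG15 (0.78 ± 0.118) and SNHG8 (0.66 ± 0.0843). SNHG15 had moved in opposite directions in the 2 lines. SNHG7 was the exception, with responses of 0.47 in wt and 0.41 in cis cells and a difference of -0.05 ± 0.0619 (adjusted p = 0.513) by edgeR. The call of SNHG12, at 0.30 ± 0.0934, was lost without library 8 of wt -SG, where the difference was 0.21, and with DESeq2, at 0.27, and in one fit over the 36 libraries 2 hosts were called. The share of all genes called in that fit is not given here.

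**Figure D3:**
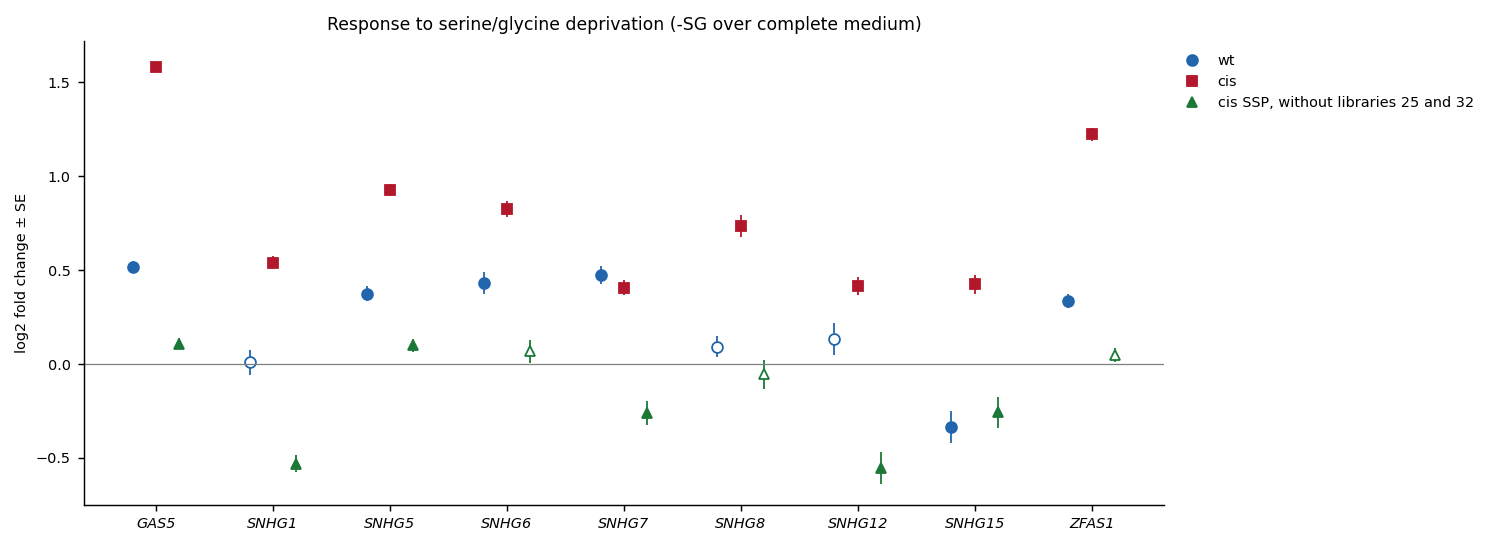
The log2 fold change of each snoRNA host gene between medium without serine and glycine and complete medium is plotted for wt (circles), cis (squares) and cis SSP cells (triangles, without libraries 25 and 32), with bars for the standard error and filled symbols for calls at an adjusted p under 0.05. The squares of cis cells lie above 0 for all 9 genes, from 0.41 for SNHG7 to 1.58 for GAS5, while wt and cis SSP cells have values on both sides of 0.

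In cis SSP cells, which had grown out under deprivation, none of the 9 was called between the media with all libraries (edgeR, and none at an unadjusted p under 0.05 or with DESeq2), where 0.0218% of genes tested were called higher and 0% lower. GAS5 was at 457, 255 and 267 CPM in complete medium and 287, 499 and 279 CPM without serine and glycine, the outlying values being those of libraries 25 and 32. Without these libraries, which leaves 2 in each condition, the values of GAS5 were 255 and 267 CPM against 287 and 279 CPM. Then 6 hosts were called, GAS5 (0.11 ± 0.0308) and SNHG5 (0.10 ± 0.0372) higher, and SNHG1 (-0.53 ± 0.0452), SNHG12 (-0.55 ± 0.0840), SNHG7 (-0.26 ± 0.0631) and SNHG15 (-0.26 ± 0.0846) lower, against 18.9% of genes called higher and 17% lower.

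In medium without serine and glycine the mean levels in cis SSP cells lay under those in cis cells, and the libraries overlapped for SNHG5 and ZFAS1 alone. With all libraries 4 hosts were called lower in cis SSP cells, GAS5 (-1.38 ± 0.242, adjusted p = 0.00549 by edgeR), SNHG12 (-1.21 ± 0.298), SNHG1 (-1.03 ± 0.204) and SNHG15 (-0.90 ± 0.289), against 23.2% of genes tested. The others were at -0.82 (SNHG7), -0.78 (SNHG8), -0.75 (SNHG6), -0.54 (ZFAS1) and -0.45 (SNHG5) and did not pass. GAS5 and SNHG1 were called with any library left out, while SNHG12 and SNHG15 lost their calls without any single cis -SG library or library 33, and SNHG15 also without library 31. Without library 32 all 9 were called lower, against 38.5% of genes tested, from -0.93 for ZFAS1 to -1.70 for GAS5. GAS5 was then at 287 and 279 CPM in cis SSP -SG, each under every cis -SG library (903, 921 and 928 CPM). The summed level of the 5 epithelial markers, mostly KRT18 in cis -SG, was 43.4 to 47.3 CPM in cis -SG and 12.1 to 18.5 CPM in cis SSP -SG libraries. That of the 4 fibroblast markers was 4 to 4.46 CPM and 36 to 42.1 CPM, and the part of both sums in the values of the hosts was not tested.

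The interaction of line and deprivation for cis SSP against cis cells was called negative for GAS5 (-1.46 ± 0.377, adjusted p = 0.0236 by edgeR) and SNHG1 (-1.02 ± 0.301, adjusted p = 0.0427) with all libraries, against 10.3% of genes tested. Without libraries 25 and 32 it was negative for all 9 hosts, against 26.6%, with values from -1.48 for GAS5 and -1.18 for ZFAS1 to -0.67 for SNHG7. With all libraries kept and any single cis or cis -SG library, or library 31 or 33 of cis SSP -SG, left out, neither GAS5 nor SNHG1 was called. Leaving out library 25 alone left 1 host called, library 27 alone 1 and library 32 alone 6, where 23%, 12.4% and 22% of all genes tested were called in either direction, against 17.1% with all libraries.

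In complete medium, none of the 9 hosts was called between cis SSP and cis cells with all libraries (edgeR, and none at an unadjusted p under 0.05 or with DESeq2), and 15.8% of genes tested were called higher and 13.3% lower in cis SSP cells. ZFAS1 was at 199, 106 and 107 CPM in cis SSP cells, above each cis library (91.2, 91.5 and 92 CPM). It was the only host without overlap. Without library 25, 8 hosts were called lower in cis SSP cells (against 32.5% of genes), from -0.15 for SNHG5 to -0.66 for SNHG12, and ZFAS1 higher, at 0.26 ± 0.0390 (against 32.9%). SNHG12 was at 22.1 and 25.4 CPM in the remaining cis SSP libraries, under the cis libraries at 37.7, 39.6 and 38.6 CPM. The summed level of the fibroblast markers was 41.7 to 51.1 CPM in cis SSP and 4.91 to 5.79 CPM in cis libraries, and its part in these values was not tested.

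The next comparison asks how the cells respond to carboplatin. Most hosts fell in wt and rose in cis cells. In wt cells in complete medium 7 hosts fell (against 39% of genes tested) and 1 rose (against 38.9%). SNHG7 fell from 48, 47.3 and 45 CPM to 29.2, 28 and 27 CPM, by a log2 fold change of -0.72 ± 0.0498 (adjusted p = 2.72e-41) in edgeR's test. SNHG1 fell from 114, 103 and 115 CPM to 78.7, 71.6 and 78.1 CPM, with -0.52 ± 0.0345. In both cases the treated libraries lay under all untreated ones. SNHG6 fell from 21.6, 22.9 and 22.2 CPM to 17.1, 16.6 and 14.7 CPM (-0.45 ± 0.0678), GAS5 from 224, 209 and 219.7 CPM to 186, 169 and 178 CPM (-0.28 ± 0.0253), and ZFAS1 (-0.27 ± 0.0403) and SNHG5 (-0.16 ± 0.0395) fell as well, again without overlap. SNHG8, at -0.12 ± 0.0588 with an adjusted p of 0.0498 in edgeR's test, was at the threshold and lost its call in 10 alternatives, among them DESeq2 (-0.13) and the omission of library 1, 2, 5 or 6 (-0.13 to -0.07).

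SNHG15, the only host that fell under deprivation in wt cells, was the only one that rose with carboplatin there. Its libraries were at 27.3, 27.2 and 30.6 CPM without and 34.2, 31.9 and 30.3 CPM with the drug, a log2 fold change of 0.20 ± 0.0544 (adjusted p = 0.000476) by edgeR. The groups overlapped, since 1 treated library lay under the highest untreated one, and DESeq2's Wald test did not call it. In one fit over the 36 libraries 2 hosts were called in this comparison, as with a minimum absolute log2 fold change of 0.5 required. Those alternatives called 53.3% and 42.3% of all genes tested in either direction, against 77.8% as given. SNHG12 was at 14.8, 13.5 and 14.4 CPM without and 15.1, 14.2 and 13.7 CPM with carboplatin, a difference of 0.02 ± 0.0774 (adjusted p = 0.778) by edgeR that did not exceed the spread. The summed level of the 4 fibroblast markers went from 518 to 549.9 CPM to 1599 to 1629 CPM in the same cells, and its part in these values was not tested.

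In cis cells the drug raised 6 hosts, against 9.27% of genes tested, and lowered none. SNHG8 rose from 36.7, 34 and 29.7 CPM to 41.9, 37.9 and 38.7 CPM, by 0.27 ± 0.0669 (adjusted p = 0.00557) in edgeR's test. GAS5 rose from 308, 311 and 318 CPM to 352, 344 and 347 CPM, by 0.18 ± 0.0259 (adjusted p = 5.09e-06) by edgeR. These changes were small, and the treated libraries still lay above the untreated ones. SNHG6 (0.22 ± 0.0484), SNHG5 (0.21 ± 0.0333), ZFAS1 (0.19 ± 0.0369) and SNHG1 (0.15 ± 0.0389) rose too, SNHG1 with overlapping libraries and no call without library 16 (0.13) or library 18 (0.12). SNHG7 (0.02), SNHG12 (0.03) and SNHG15 (0.04) did not pass the threshold. In one fit over the 36 libraries, and with a minimum absolute log2 fold change of 0.5 required, no host was called in cis cells. Those alternatives called 2.4% and 2.24% of all genes tested in either direction, against 20.1% as given.

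The responses to carboplatin differed between the lines for 7 of the 9 hosts, each with a higher value in cis cells, against 30.3% of the 15300 genes tested. The interaction was 0.75 ± 0.0651 (adjusted p = 2.62e-15) for SNHG7 in edgeR's test, 0.68 ± 0.0771 for SNHG1, 0.67 ± 0.0826 for SNHG6, 0.46 ± 0.0391 for GAS5, 0.46 ± 0.0529 for ZFAS1, 0.40 ± 0.0879 for SNHG8 and 0.38 ± 0.0503 for SNHG5. For 6 of these the host had fallen in wt and risen in cis cells, while SNHG7 had fallen in wt cells alone. SNHG12, at 0.01 ± 0.0902 (adjusted p = 0.955), and SNHG15, at -0.15 ± 0.0841 (adjusted p = 0.134), were not called by edgeR. In one fit over the 36 libraries the interaction was called for 1 host. The share of all genes called in that fit is not given here.

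Without serine and glycine, carboplatin lowered 5 hosts in wt cells (against 34.6% of genes tested) and raised SNHG15 (against 34.3%). SNHG7 went from 60.3, 64.4 and 68.9 CPM to 29.3, 36.2 and 29.9 CPM, a log2 fold change of -0.99 ± 0.0896 (adjusted p = 7.79e-06) by edgeR. GAS5 went from 316, 301 and 312 CPM to 187, 228 and 190.1 CPM, -0.59 ± 0.0783. The middle value of each treated trio, that of library 11, was the highest, and the treated libraries lay under the untreated ones. SNHG6 (-0.59 ± 0.106), ZFAS1 (-0.38 ± 0.0826) and SNHG5 (-0.21 ± 0.0841) fell, and SNHG15 rose from 23.7, 19 and 24.5 CPM to 30.4, 39.4 and 31.2 CPM (0.62 ± 0.123). Without library 11, 7 hosts were called, where 73.3% of all genes tested were called in either direction against 68.9% with all libraries, and the values of GAS5, SNHG7 and SNHG15 were -0.68, -1.09 and 0.50. The call of SNHG5 was lost in 11 alternatives, among them the omission of any library but 11, and its value was -0.02 with the trend over transcript length removed. That removal took SNHG5 as 12604 bases long, its merged exon length, so the value does not show the part of length.

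In deprived cis cells the drug lowered 4 hosts (against 11.6% of genes tested), all of them by small amounts. SNHG15 went from 63, 59.5 and 66 CPM to 48, 51.5 and 49 CPM (-0.25 ± 0.0617), SNHG12 from 51.2, 48.4 and 52.1 CPM to 44, 40.4 and 38.9 CPM (-0.21 ± 0.0497), and SNHG6 (-0.14 ± 0.0409) and ZFAS1 (-0.14 ± 0.0291) fell with them. In CPM scaled over the 36 libraries, which gives larger falls here than the scaling of the 6 libraries in the test, the libraries of both conditions did not overlap for these 4, nor for SNHG1 (-0.19) and SNHG7 (-0.11), which did not pass. GAS5 was at 903, 921 and 928 CPM without and 906, 804 and 803 CPM with carboplatin and was not called (-0.04 ± 0.0271, adjusted p = 0.285 by edgeR). Of the treated libraries, 23 and 24 had 17.9% and 14.9% of their counts outside annotated features, against at most 9.31% in every other library, and the part of this in the values was not tested. Without library 21 of cis -SG 1 host was called, without library 24 2 hosts, and in one fit over the 36 libraries none, where 13%, 11.3% and 6.84% of all genes tested were called in either direction, against 22.5% in the comparison as given.

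The interaction of medium and carboplatin, positive where the log2 fold change with the drug was higher without serine and glycine, was called in wt cells for GAS5 (-0.32 ± 0.0890, adjusted p = 0.0146 by edgeR, against 13.1% of genes called negative) and SNHG15 (0.42 ± 0.147, adjusted p = 0.046, against 14.6% called positive). Without library 11 of wt -SG carbo 6 hosts were called, where 34.2% of all genes tested were called in either direction against 27.7% with all libraries, and GAS5 and SNHG15 were at -0.41 and 0.30. SNHG15 lost its call without any single wt or wt carbo library and without library 7 or 8 of wt -SG. In cis cells the interaction was negative for 5 hosts, GAS5 (-0.22 ± 0.0385), SNHG5 (-0.21 ± 0.0470), SNHG6 (-0.36 ± 0.0656), SNHG12 (-0.23 ± 0.0712) and ZFAS1 (-0.32 ± 0.0458), against 6.17% of genes tested. Without library 13 or library 17 it was called for 8 hosts and without library 22 for 9, where 10%, 12.4% and 23.4% of all genes tested were called in either direction, against 12.1% with all libraries, and SNHG12 lost its call without library 15 or 24.

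In cis SSP cells carboplatin called none of the 9 hosts in either medium with all libraries (edgeR, and none at an unadjusted p under 0.05 or with DESeq2). In complete medium 1.97% of genes tested were called higher and 0.749% lower, and without serine and glycine 1.17% and 0.295%. SNHG8 was at 51.1, 23.6 and 21.8 CPM without and 30.1, 31.3 and 30.6 CPM with the drug in complete medium, the first of these being library 25. Without that library 6 hosts were called higher with carboplatin, against 21.9% of genes tested, namely SNHG8 (0.43 ± 0.0644), SNHG15 (0.34 ± 0.101), SNHG5 (0.30 ± 0.0340), ZFAS1 (0.30 ± 0.0334), GAS5 (0.22 ± 0.0286) and SNHG6 (0.21 ± 0.0548). Without serine and glycine and without library 32 all 9 were called higher with the drug, against 21.1% of genes tested, from 0.13 for GAS5 to 0.59 for SNHG12. These calls rest on 2 untreated libraries in each medium.

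**Figure D4:**
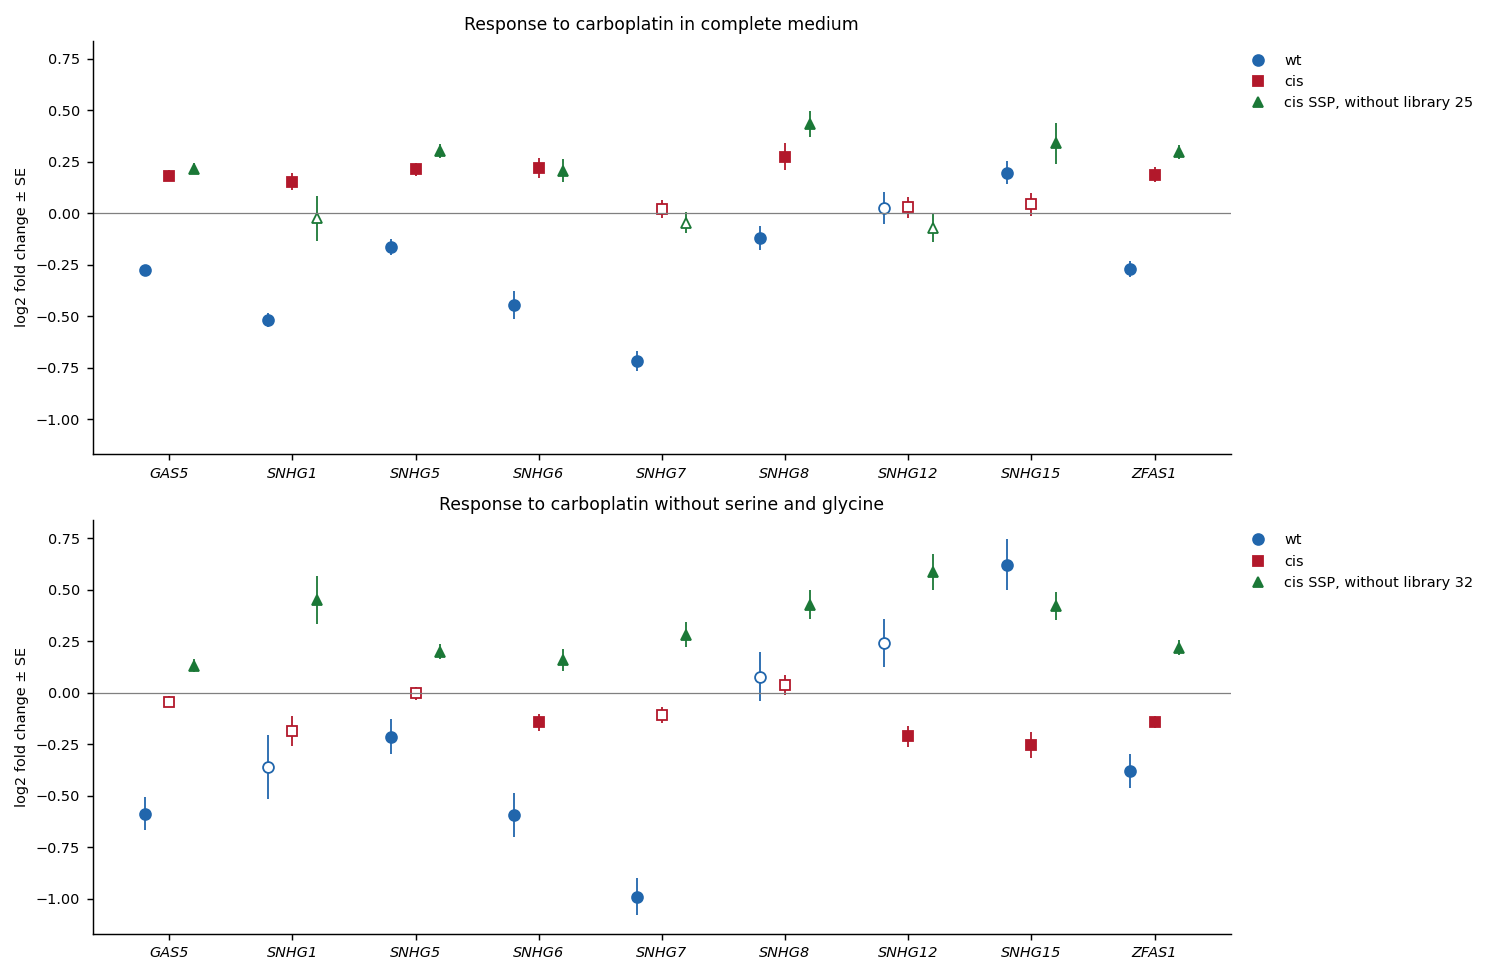
The log2 fold change of each snoRNA host gene between carboplatin-treated and untreated cells is plotted with its standard error in complete medium (upper panel) and without serine and glycine (lower panel), for wt (circles), cis (squares) and cis SSP cells (triangles, without library 25 or 32). Filled symbols are calls at an adjusted p under 0.05. In complete medium most circles of wt cells lie under 0 and the squares of cis cells at or above it, and in deprived wt cells SNHG7 is lowest at -0.99 and SNHG15 highest at 0.62.

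Genes related to the hosts by role were counted in the same comparisons, as descriptions beside the median over all genes tested, which lay between -0.00407 and 0.0120 in the 5 comparisons used. In deprived cis cells, where the median log2 fold change of the 9 hosts was 0.73, ribosomal protein genes mostly rose (59 of 77, with 8 lower, median 0.25), where 37.6% of all genes tested were called higher and 37.4% lower. RPL22 (1.19 ± 0.0303) and RPS12 (0.97 ± 0.0281), itself a snoRNA host, rose most, and RPSA (-0.42 ± 0.0275) fell most. Of the genes listed as translation factors of the TOP class, 8 of 14 rose and 3 fell. EEF1B2 was at 1.01 and HNRNPA1, whose product is an RNA-binding protein and not a translation factor, at -0.49. Protein-coding snoRNA hosts split similarly, in that 19 of 32 rose and 8 fell (median 0.17).

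Other noncoding snoRNA hosts did not move as a block. Of 16 tested, 7 rose and 6 fell in deprived cis cells (median 0.23), with EPB41L4A-AS1 (1.89 ± 0.0487), SNHG32 (1.48 ± 0.0406) and SNHG20 (1.28 ± 0.114) highest and DANCR (-0.73 ± 0.0458) and SNHG14 (-0.64 ± 0.0346) lowest. In deprived wt cells 4 rose and 8 fell, SNHG32 rising by 0.78. With carboplatin in wt cells 3 rose and 8 fell, with SNHG3 at -1.03. Between cis and wt cells 8 were higher and 5 lower in cis cells, led by SNHG32 at 1.61. Among all genes tested 24.1% were called higher and 25.1% lower in deprived wt cells, 38.9% and 39% in wt cells with carboplatin, and 39.4% and 39.1% between cis and wt cells. In deprived cis cells these shares were 37.6% and 37.4%.

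The factors of nonsense-mediated decay went both ways in deprived cis cells (9 of 19 rose and 6 fell, median 0.06), with CASC3 at 0.54 and EIF4A3 at -0.45. Of all genes tested there, 37.6% were called higher and 37.4% lower. Of the mRNAs known to be sensitive to this decay, 6 of 7 rose and 1 fell (median 0.34), led by UPP1 (2.61 ± 0.0502) and GADD45A (1.81 ± 0.0566), while TBL2 fell (-0.41 ± 0.0950). In wt cells with carboplatin, where most hosts fell, 4 of these 7 mRNAs rose and 2 fell (median 0.40), between cis and wt cells 4 were higher and 3 lower in cis cells (median 0.15), in deprived wt cells 3 rose and 2 fell, and in cis cells with carboplatin 3 rose and 0 fell. The list of these mRNAs shares ATF4 with the genes of the ATF4 pathway, the transcription programme of amino acid stress. In that list 11 of 12 rose and 0 fell (median 1.30), with ATF3 at 3.13, DDIT4 at 2.35 and SESN2 at 1.81. Proteins of the snoRNA particles mostly fell or did not pass (4 of 16 rose and 8 fell), ZNHIT6 rising by 0.76 and RUVBL2 at -0.63. All 10 proliferation genes fell (median -1.31), MKI67 with -2.03 ± 0.0315.

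In wt cells treated with carboplatin, where 7 of the 9 hosts fell, 63 of 77 ribosomal protein genes fell and 10 rose (median -0.17), and all 10 proliferation genes fell (median -2.0). Of all genes tested there, 38.9% were called higher and 39% lower. In treated cis cells, where 6 hosts rose, 5 ribosomal protein genes rose and 1 fell, 7 of 12 ATF4-pathway genes rose and 1 fell, and 8 of 10 proliferation genes fell (median -0.15), against 9.27% of all genes tested called higher and 10.8% lower. In deprived wt cells 58 of 77 ribosomal protein genes and 12 of 14 genes listed as TOP translation factors rose. In the same cells 13 of 16 snoRNA particle proteins fell and all 10 proliferation genes fell (median -0.38). Of all genes tested there, 24.1% were called higher and 25.1% lower. Between cis and wt cells 51 of 77 ribosomal protein genes were higher and 16 lower in cis cells, against 39.4% and 39.1% of all genes tested. RPL30 (0.88) and RPL8 (0.83) were highest. The part of these genes' levels in the values of the hosts was not tested.

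**Figure D5:**
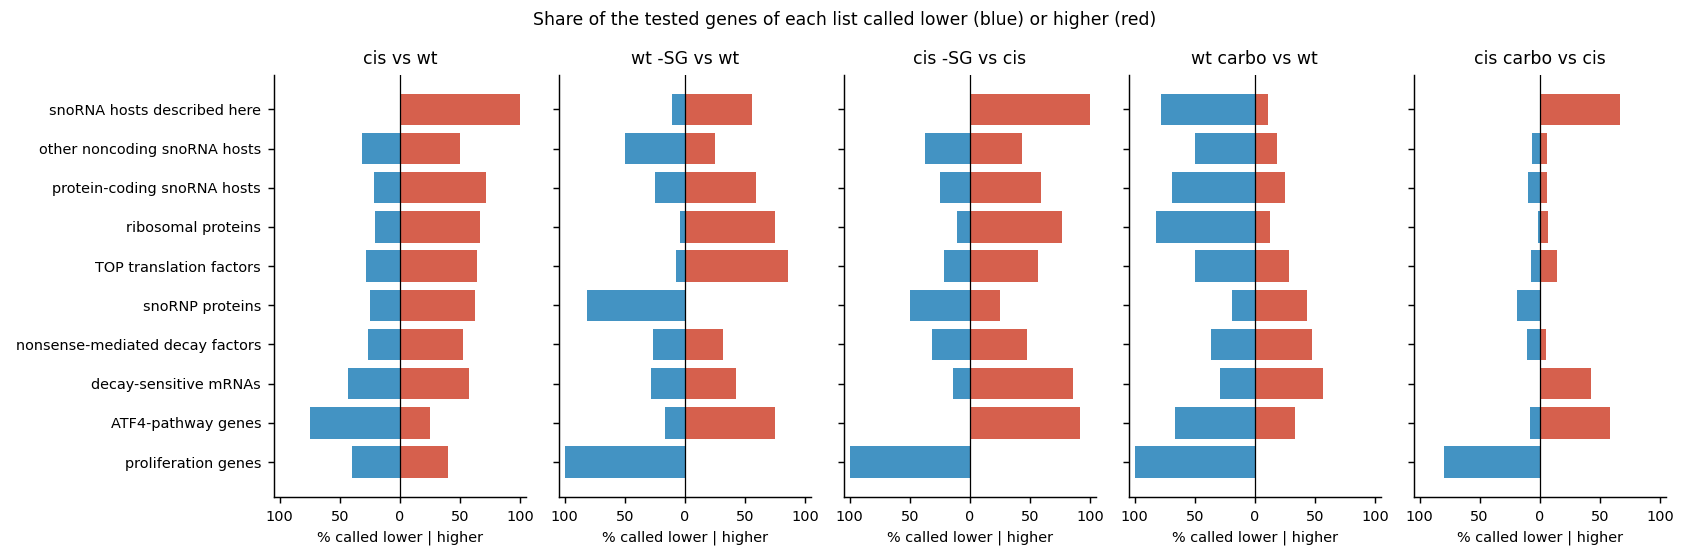
For 5 comparisons, bars to the right give the percentage of the tested genes of a list called higher in the condition named first and bars to the left the percentage called lower, by edgeR at an adjusted p under 0.05. The 9 snoRNA hosts were all called higher in cis against wt cells and in cis cells without serine and glycine, and 7 were called lower in wt cells with carboplatin. Proliferation genes were called lower throughout both deprivation panels and in wt cells with carboplatin.

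Several hosts overlap other genes, and the strand setting of the counting is not given in the sources used here. By the same annotation, 58.9% of the exonic bases of SNHG6 lie over MCMDC2, 37.6% of those of SNHG8 over PRSS12 and 30.3% of those of SNHG7 over DIPK1B. The counts on MCMDC2 and PRSS12 came to 0.849% and 4.73% of those on their hosts, and the counts on DIPK1B to 22.9% of those on SNHG7. These 3 neighbours lie on the opposite strand, and without the strand setting reads of a host and its neighbour cannot be told apart. The snoRNA genes inside the hosts received few counts, between 17 and 42 per library on SNORD78 in GAS5 and at most 27 on the SNORD12 genes in ZFAS1.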

How the data were processed

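Single-end RNA-seq reads of 36 libraries had been aligned by the authors with STAR to GRCh37.p13 and counted with HTSeq on the exons of GENCODE v19. The strand setting is not given in the sources used here. The deposited table holds raw whole-number counts per gene, with all columns matched to a library through the labels and the special HTSeq categories kept out of library sizes and tests (4.21% to 17.9% of reads without a feature).

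For symbols and positions, GENCODE v44 in its GRCh37 mapping was used, with 55538 of 57820 identifiers matched, and 4 symbols of the gene lists had no row. Each comparison was fitted with edgeR 4.0.16 in R 4.3.3 on its own libraries (filterByExpr, TMM, robust quasi-likelihood F-test, Benjamini-Hochberg adjustment over all genes tested, threshold 0.05). The study's processing notes name DESeq and DESeq2. DESeq2 1.42.0 served as an alternative, with other normalizations, a single fit of all 36 libraries, no count filter or a minimum of 10 counts per library, removal of the trend over transcript length by lowess (span 0.3), a minimum absolute log2 fold change of 0.5, omission of each library, and omission of libraries 25 and 32 together. The standard error is the absolute log2 fold change divided by the square root of F. The script was tested on simulated counts with known changes. The genes, the lists, and the omission of libraries 25 and 32 were chosen with earlier results of these data known. Besides the 9 hosts, up to 3 called genes of each list in each direction with a mean of at least 50 counts could be named, with PHGDH and CDKN1A as label checks and the 5 genes most like the hosts. Library pairs of a condition differed by a mean chi-square per gene of 1.18 to 111. The lowest, that of libraries 10 and 12, is little above that of counting noise alone. Repeats of the same sample could therefore not be told from separate samples, and every library was kept. Figures were drawn with matplotlib 3.10.9. Comparisons of levels between genes per length were not made.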

Additional observations from a re-analysis of the deposited data

Results flagged for a closer look

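The values below drew attention because a response differed between lines or media in the test of the difference itself (interaction term, the quasi-likelihood test of edgeR, Benjamini-Hochberg adjustment, threshold 0.05). Each is a difference of log2 fold changes.

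The response to carboplatin was higher in cis than in wt cells by 0.46 for GAS5, 0.68 for SNHG1, 0.38 for SNHG5, 0.67 for SNHG6, 0.75 for SNHG7, 0.40 for SNHG8 and 0.46 for ZFAS1. The response to serine/glycine deprivation was higher in cis than in wt cells by 1.08 for GAS5, 0.55 for SNHG1, 0.57 for SNHG5, 0.41 for SNHG6, 0.66 for SNHG8, 0.30 for SNHG12, 0.78 for SNHG15 and 0.90 for ZFAS1. GAS5 thus had the largest difference of the 9 hosts under deprivation, and SNHG7, which had the largest under carboplatin, was not called under deprivation.

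The response to carboplatin in medium without serine and glycine, relative to complete medium, differed in wt cells by -0.32 for GAS5 and 0.42 for SNHG15, and in cis cells by -0.22 for GAS5, -0.21 for SNHG5, -0.36 for SNHG6, -0.23 for SNHG12 and -0.32 for ZFAS1. GAS5 was the one host called in both lines. Between cis SSP and cis cells the response to deprivation differed by -1.46 for GAS5 and -1.02 for SNHG1, with libraries 25 and 32 included.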

How the results depend on the processing

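Over 19 comparisons, 2718 values of single hosts were recomputed under the alternatives. Of 1466 values of called hosts, 1300 were called again, 166 were not, and 0 changed sign. Of 1252 values of hosts not called, 106 kept their sign and were newly called, 67 changed sign and were called in neither fit, 30 changed sign and were called, and these 30 came from leaving out library 25, library 32 or both. In cis carbo against wt carbo each of the 9 hosts was called in all 14 alternatives run. In cis -SG against cis, SNHG7, SNHG12 and SNHG15 were each called in 12 of 14, and the other hosts in all. In cis -SG against wt -SG, SNHG7 was called in 12 of 14 and the other hosts in all. With a minimum absolute log2 fold change of 0.5 required, the number of hosts called was 5 for cis against wt, 2 for wt carbo, 0 for cis carbo, 1 for wt -SG, 0 for cis -SG carbo, 3 for the interaction of line and carboplatin, and 0 for that of medium and carboplatin in wt and in cis cells. Of all genes tested, this rule called 44.7% for cis against wt, 42.3% for wt carbo and 2.24% for cis carbo. It called 9.82% for wt -SG and 4.43% for cis -SG carbo. In one fit over the 36 libraries it was 1 for cis SSP against cis, 2 for wt carbo, 0 for cis carbo, 1 for wt -SG, 0 for cis -SG carbo, 8 for cis SSP -SG against cis -SG, 1 for line and carboplatin, 2 for line and deprivation, 0 for medium and carboplatin in each line, and 4 for line and deprivation in cis SSP against cis. Of all genes tested, that fit called 47.8%, 53.3%, 2.4%, 16.9%, 6.84% and 58.8% in the comparisons other than interactions, in the order given. The main fits called 29.1%, 77.8%, 20.1%, 49.2%, 22.5% and 44.8%. Shares for the interactions in that fit and under the stricter rule are not given here. Without libraries 25 and 32 it was 9 for cis SSP against cis, 6 for cis SSP carbo, 6 for cis SSP -SG against cis SSP, 9 for cis SSP -SG carbo, 9 for cis SSP -SG against cis -SG and 9 for line and deprivation in cis SSP against cis. The shares of all genes tested, in the comparisons other than the interaction, were 65.4%, 41.2%, 35.9%, 41.1% and 75.5%. The cause of these shifts was not tested, apart from the stricter rule and the smaller sets of libraries. Leaving out each library in turn gave 0 to 9 for cis SSP against cis, 0 to 6 for cis SSP carbo, 1 to 6 for cis -SG carbo, 0 to 9 for cis SSP -SG carbo and 2 to 9 for cis SSP -SG against cis -SG. Omissions in the interactions are described with their results above. Of all genes tested, these omissions called 14.3% to 65.4% for cis SSP against cis and 0.0636% to 41.2% for cis SSP carbo. They called 11.3% to 34.7% for cis -SG carbo and 0% to 41.1% for cis SSP -SG carbo. For cis SSP -SG against cis -SG they called 27.4% to 75.5%. No paired analysis was possible because the labels give no replicate numbers that link libraries of different conditions. Scaling moved the median of all genes by over 0.1 in 1 case, to -0.105 with total counts, for line and deprivation in cis SSP against cis.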
